A study of Mus musculus with 2 samples.

Results

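The expression of 10 natural killer (NK) receptor genes was examined in CD45+ cells of MC38 tumors with and without local irradiation. The 10 genes were selected by symbol from the 32285 genes of the count matrices. They comprised 5 Ly49 receptors (Klra3, Klra4, Klra7, Klra8 and Klra9), the NKG2 and CD94 receptors (Klrc1, Klrc2, Klrd1 and Klrk1) and Klrg1. All 10 were present in both matrices. MC38 is a mouse colon carcinoma line, and the tumors were grown in mice whose genotype is given as WT. The study uses this name elsewhere for Cre-negative mice with a floxed Ythdf2 allele, and whether the mice used here carried that allele is not given. The Control library came from tumors without irradiation, and the IR library from tumors that received 20 Gy of ionizing radiation once and were collected 4 days later. Each library pooled several tumors, so there was 1 library per group, no test was possible and no difference has a replicate check. The sample records also name a narrower myeloid gate (CD45+CD11b+Ly6Chi), although CD45+ cells were sorted per the protocol, and both libraries contained barcodes with NK and T cell markers.

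Ly49 receptors are lectin-like proteins of the mouse NK cell surface that bind MHC class I molecules or related ligands. Klra3 (Ly49C), Klra7 (Ly49G) and Klra9 (Ly49I) encode inhibitory members, and Klra4 (Ly49D) and Klra8 (Ly49H) encode activating members that signal through the adaptor Tyrobp. Each NK cell expresses some members and not others, so that the population is a mosaic of receptor combinations. Klrd1 (CD94) pairs with Klrc1 (NKG2A, inhibitory) or Klrc2 (NKG2C, activating) to bind the class Ib molecule encoded by H2-T23. Klrk1 (NKG2D) is an activating receptor for stress-induced ligands of the Raet1, H60 and Ulbp1 families and signals through Hcst. Klrg1 is an inhibitory receptor for cadherins that marks mature NK cells and differentiated T cells.

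All 10 genes lie on mouse chromosome 6 in the NK gene complex or near it (GENCODE vM21, build GRCm38). The 5 Ly49 genes are on the minus strand within 293844 bases, from Klra4 (chr6:130043731-130067271) through Klra8 (chr6:130115226-130129898), Klra9 (chr6:130178675-130193112) and Klra7 (chr6:130218605-130233322) to Klra3 (chr6:130323289-130337574). On the same strand lie Klrk1 (chr6:129610323-129623864), Klrc2 (chr6:129647496-129660689) and Klrc1 (chr6:129666015-129678973). Klrd1 (chr6:129591782-129598775) is on the plus strand, and Klrg1 (chr6:122270596-122282882) is the most distant member. None of the 10 overlaps another annotated gene. RefSeq start sites were given for 8 of the 10, all except Klrd1 and Klrg1, and the 250 bases before the start of each Ly49 gene are shown because these genes were detected together in single cells but at different levels. The capitals mark the longest run of letters common to the 5 windows, which is 11 bases long. The sequences are written 5′ to 3′ on the minus strand, from RefSeq on GRCm38.p6, at chr6:130337627-130337876 for Klra3, chr6:130067272-130067521 for Klra4, chr6:130233323-130233572 for Klra7, chr6:130129899-130130148 for Klra8 and chr6:130193113-130193362 for Klra9.
Klra3: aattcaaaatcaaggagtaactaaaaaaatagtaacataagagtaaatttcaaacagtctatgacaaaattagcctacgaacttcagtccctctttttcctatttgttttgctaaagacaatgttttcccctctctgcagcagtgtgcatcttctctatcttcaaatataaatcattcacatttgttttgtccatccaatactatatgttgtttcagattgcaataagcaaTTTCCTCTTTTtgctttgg
Klra4: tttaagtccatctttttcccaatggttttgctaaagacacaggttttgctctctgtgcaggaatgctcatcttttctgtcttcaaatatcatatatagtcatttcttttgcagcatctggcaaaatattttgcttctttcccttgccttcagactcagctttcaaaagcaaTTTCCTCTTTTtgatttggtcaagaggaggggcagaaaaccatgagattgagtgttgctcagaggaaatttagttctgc
Klra7: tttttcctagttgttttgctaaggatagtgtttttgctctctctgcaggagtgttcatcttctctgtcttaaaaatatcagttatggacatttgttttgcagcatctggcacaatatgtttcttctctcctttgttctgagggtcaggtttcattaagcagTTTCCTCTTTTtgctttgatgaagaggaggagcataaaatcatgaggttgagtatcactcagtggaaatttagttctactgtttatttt
Klra8: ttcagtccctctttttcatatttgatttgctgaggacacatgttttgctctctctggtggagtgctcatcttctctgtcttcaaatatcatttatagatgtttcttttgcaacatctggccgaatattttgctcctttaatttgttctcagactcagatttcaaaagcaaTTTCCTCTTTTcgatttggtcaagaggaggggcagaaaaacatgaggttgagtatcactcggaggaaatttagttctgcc
Klra9: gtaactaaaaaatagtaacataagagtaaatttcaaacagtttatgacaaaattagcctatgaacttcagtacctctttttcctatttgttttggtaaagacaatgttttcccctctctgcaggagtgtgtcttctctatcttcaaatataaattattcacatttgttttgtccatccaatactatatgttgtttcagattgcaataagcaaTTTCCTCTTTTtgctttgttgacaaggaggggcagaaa

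Counted from the base before the start as -1, the common run TTTCCTCTTTT began at -19 in Klra3, -38 in Klra9, -79 in Klra4, -80 in Klra8 and -89 in Klra7. It was found on either strand in 42 of 32851 RefSeq windows of this length (0.128%), which belonged to 39 genes, and 8 of these were among the 11 Klra genes with a window. The windows of the inhibitory pair Klra3 and Klra9 shared an unbroken run of 75 bases. The other pairs shared 17 to 27 bases, with the longest of these between the activating pair Klra4 and Klra8. TATAAA was found on either strand in the windows of Klra3, Klra8 and Klra9 and in 12.4% of all windows. The TCF motif CTTTGAT was found in the window of Klra7 and in 3.21% of all windows. The RUNX motif TGTGGT was in none of the 5 Ly49 windows, in those of Klrc1, Klrc2 and Klrk1, and in 14.0% of all windows. The T-box motif GGTGTGA (3.33% of all windows) and the interferon-stimulated response element core (2.98%) were in none of the 5. These matches are descriptions of the letters in the windows.

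There were 48593879 UMIs (unique molecular identifiers, each marking 1 captured RNA molecule) in Control and 42406461 in IR. Barcodes with at least 1000 UMIs numbered 4975 in Control, with a median of 6874 UMIs, and 3507 in IR, with a median of 8036, and 7 barcode sequences were common to both. NK cells were barcodes with at least 1 UMI of Ncr1, the NKp46 receptor, and T cells were barcodes with at least 1 UMI of Cd3d or Cd3g. There were 383 NK cells in Control (7.70%, exact Clopper-Pearson 95% interval 6.97 to 8.47) and 380 in IR (10.8%, 9.83 to 11.9), with medians of 8488 and 12454 UMIs, and a gate at 1 UMI takes in more cells at greater depth. T cells numbered 1178 (23.7%) and 763 (21.8%), with medians of 8163.5 and 10641 UMIs. Both markers were found in 97 and 92 barcodes, which were counted in both populations. Barcodes with 3 or more UMIs of the macrophage genes C1qa, C1qb and C1qc formed 19.8% of the NK cells in Control and 13.7% in IR, and 49.3% and 32.4% of the T cells. Such barcodes were 55.7% of all barcodes in Control and 27.0% in IR, and once they were left out the log2 ratio of the NK share, IR over Control, went from 0.49 (0.30 to 0.69) to -0.12 (-0.33 to 0.09).

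The marker lists were checked in both populations. All 8 NK markers were detected in the NK cells, at a summed level of 6151 CPM (UMIs of a gene per 1000000 UMIs of the population) in Control and 7810 CPM in IR. All 11 T cell markers were detected in the T cells, at 2852 and 2743 CPM. The 6 macrophage markers summed to 2215 and 969 CPM in the NK cells and to 5089 and 1820 CPM in the T cells, lower in IR in both. The 5 neutrophil markers were higher in IR, at 49.9 and 252 CPM in the NK cells and 73.0 and 899 CPM in the T cells. The 6 dendritic cell (DC) markers summed to 16.5 and 76.3 CPM in the NK cells and 129 and 175 CPM in the T cells. The receptors were also found outside cells. In barcodes of 10 to 100 UMIs, which hold free RNA, the Ly49 genes summed to 115 CPM in Control and 292 CPM in IR. Klrd1 reached 267 and 539 CPM there. The part of these other cells and of free RNA in the receptor levels was not tested. For the ratios in NK and T cells, values without C1q barcodes are given where they left the interval of the main ratio or crossed 0.

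In NK cells, CD94 was the most abundant of the 10 receptors and Klrg1 the least, in both libraries. Each captured molecule was tagged once at its 3′ end, so CPM can be compared between genes without a correction for length. In Control the order was Klrd1 (820 CPM), Klrk1 (281), Klra7 (202), Klrc1 (152), Klra8 (116), Klra4 (111), Klra9 (85.4), Klra3 (56.1), Klrc2 (52.1) and Klrg1 (31.5). The exact Poisson 95% intervals of neighbors in this order overlapped for Klra8 and Klra4 and for Klra3 and Klrc2 only. In IR the activating Klra8 (139 CPM) and Klra4 (133 CPM) stood above the inhibitory Klrc1 (110 CPM), with no overlap of the intervals of Klra4 and Klrc1. The other receptors kept their places, and the intervals overlapped for Klra8 and Klra4 and for Klrc2 and Klrg1. These intervals cover counting error only and neither the animals nor the libraries. Reads of near-identical relatives can be lost or misplaced. Of the 90-base windows in the last 500 bases of the transcripts, 21.9% for Klrc1, 12.4% for Klra9, 6.57% for Klra7, 6.36% for Klrc2 and 5.15% for Klra3 also occurred in another gene, and none did for the other 5 receptors.

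**Figure D1:**
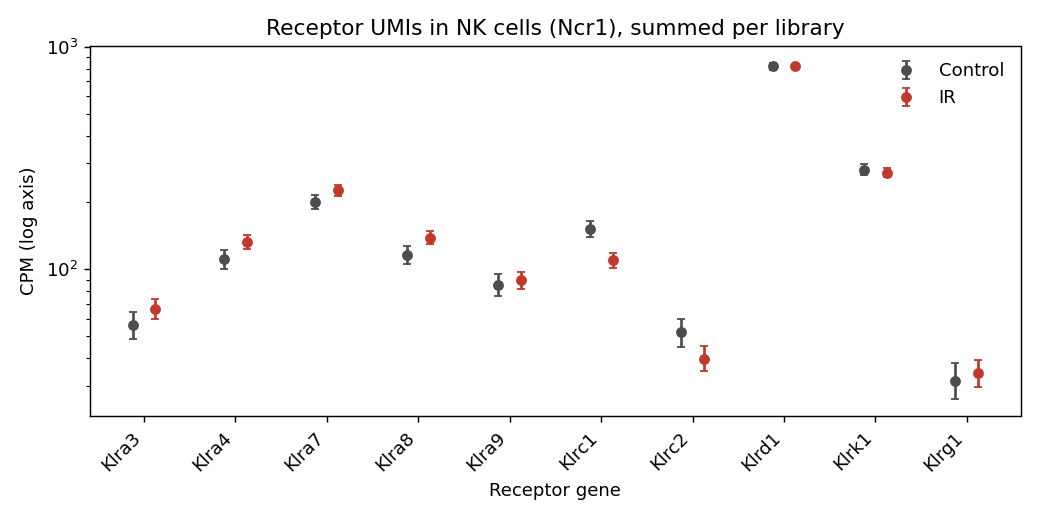
Level of each receptor in NK cells of the Control and IR libraries, in CPM on a log axis, with 1 point per library and bars for exact Poisson 95% intervals. Klrd1 lies at 820 and 818 CPM, the 4 points of Klrc1 and Klrc2 show IR below Control, and the 5 Ly49 genes show IR at or slightly above Control.

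The comparison of IR with Control asked which receptors differed in NK cells of irradiated tumors. The Ly49 sum was slightly higher in IR and Klrc1 and Klrc2 were lower, while the intervals of the ratios of Klrd1 and Klrk1 included 0. None of the 10 receptors reached a 2-fold difference in either direction. Among the 10472 genes with at least 20 UMIs in NK cells, 3.33% were 2-fold or more higher in IR, 1.95% were 2-fold or more lower and 5.28% were either, and the median log2 ratio was -0.03 with 10th and 90th percentiles of -0.51 and 0.51. All 10 receptors lay inside that range. A difference in 1 direction within it is shared by many genes.

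The inhibitory Klra7 was the most abundant Ly49 gene, with 744 UMIs (202 CPM, 188 to 217) in Control and 1343 UMIs (227 CPM, 215 to 239) in IR. Its log2 ratio, IR over Control, was 0.17 (0.04 to 0.30), where the interval is the exact conditional 95% interval and covers counting error only. The activating Klra4 had 409 and 789 UMIs, 111 CPM in Control and 133 CPM in IR, with a log2 ratio of 0.26 (0.09 to 0.44). The activating Klra8 had 428 and 823 UMIs at 116 and 139 CPM and a log2 ratio of 0.26 (0.09 to 0.43), which was 0.09 (-0.09 to 0.27) without the barcodes of 3 or more C1q UMIs. For the inhibitory Klra3 and Klra9 the interval included 0. Klra3 had 207 and 393 UMIs (56.1 and 66.4 CPM) and Klra9 had 315 and 529 UMIs (85.4 and 89.3 CPM, log2 ratio 0.06, -0.14 to 0.27), and without the C1q barcodes the ratio of Klra9 was -0.05 (-0.27 to 0.17). The Ly49 members together stood at 570 CPM in Control (546 to 595) and reached 655 CPM in IR (634 to 676), for a log2 ratio of 0.20 (0.12 to 0.28). Without the barcodes of 3 or more C1q UMIs it was 717 and 774 CPM, with a log2 ratio of 0.11 (0.03 to 0.19). The level was spread unevenly over cells. Klra7 reached 30 UMIs in 1 Control cell and 41 in 1 IR cell, with medians of 4 and 5 UMIs in the cells that had any.

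The inhibitory chain Klrc1 showed the largest difference of the 10, with 560 UMIs (152 CPM, 140 to 165) in Control and 650 UMIs (110 CPM, 101 to 119) in IR and a log2 ratio of -0.47 (-0.63 to -0.30). Its activating relative Klrc2 was lower by a similar ratio, with 192 and 235 UMIs at 52.1 and 39.7 CPM (log2 ratio -0.39). Their common partner Klrd1 had 3023 UMIs (820 CPM, 791 to 850) in Control and 4842 UMIs (818 CPM, 795 to 841) in IR. Without the C1q barcodes it was at 1021 and 972 CPM, with a log2 ratio of -0.07 (-0.14 to -0.002). It was found in 91.1% of NK cells in Control and 92.4% in IR at their own depths, and in 72.8% (67.8 to 77.4) and 70.0% (65.0 to 74.6) after each cell was thinned to 2000 UMIs. Klrk1 had 1037 and 1614 UMIs, 281 and 273 CPM, with a log2 ratio of -0.05. Its adaptor Hcst was lower in IR, at 323 and 226 CPM with a log2 ratio of -0.52 (-0.63 to -0.40). The sum of the NKG2 and CD94 genes was 1305 CPM in Control and 1240 CPM in IR, most of it Klrd1, with a log2 ratio of -0.07 (-0.13 to -0.02), and of -0.13 (-0.18 to -0.07) without the C1q barcodes. The NK markers differed in both directions. Of the 8, 5 had a ratio above 0, with a median of 0.11. Ncr1, which defined the gate, was lower in IR, at 254 and 188 CPM, as were Klrb1c (NK1.1), at 183 and 136 CPM, and Il2rb. The granule genes Gzma and Prf1 were higher, with log2 ratios of 0.77 each.

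Klrg1 was rare and concentrated in few NK cells. It had 116 UMIs in Control (31.5 CPM, 26.0 to 37.7) and 202 in IR (34.1 CPM, 29.6 to 39.2), with a log2 ratio of 0.12 (-0.22 to 0.46), so no difference was detectable at this depth. The 10 cells with the most UMIs held 45.7% of the Klrg1 UMIs in Control and 44.6% in IR, against 13.2% and 13.4% for Klrd1. The highest Klrg1 cell had 9 UMIs in Control and 21 in IR.

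The NK cells were divided by their granzymes, the proteases of cytotoxic granules. A cell with more Gzma UMIs than the sum of Gzmc, Gzmd, Gzme, Gzmf and Gzmg was placed in the Gzma group, and a cell with the reverse in the Gzmc-g group. The Gzma group held 113 cells in Control (2.27% of all barcodes) and 185 in IR (5.28%). The Gzmc-g group held 242 (4.86%) and 185 (5.28%), and 28 and 10 cells had neither in excess. The groups also differed in depth and in C1q barcodes. In the Gzma group the medians were 6254 UMIs in Control and 7052 in IR, and 26.5% and 14.6% of cells had 3 or more C1q UMIs. In the Gzmc-g group the medians were 9593.5 and 17627 UMIs, and the C1q shares 13.6% and 12.4%. The part of depth and of other cells in the receptor levels of the groups was not tested. The Ly49 genes and Klrd1 differed between the groups in opposite directions. The Ly49 level was 1072 CPM in Control and 994 CPM in IR in the Gzma group, and 438 and 462 CPM in the Gzmc-g group. Klrd1 showed the reverse order, with 539 and 618 CPM in the Gzma group and 945 and 941 CPM in the Gzmc-g group. Klrc1 was also higher in the Gzmc-g group, at 165 and 125 CPM, than in the Gzma group, at 114 and 87.8 CPM. Klrc2 was slightly lower there, at 49.3 and 35.2 CPM against 57.7 and 46.8 CPM in the Gzma group, with overlapping intervals in each library. Klrk1 was nearly level across the groups, between 251 and 299.6 CPM in the 4 values.

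**Figure D2:**
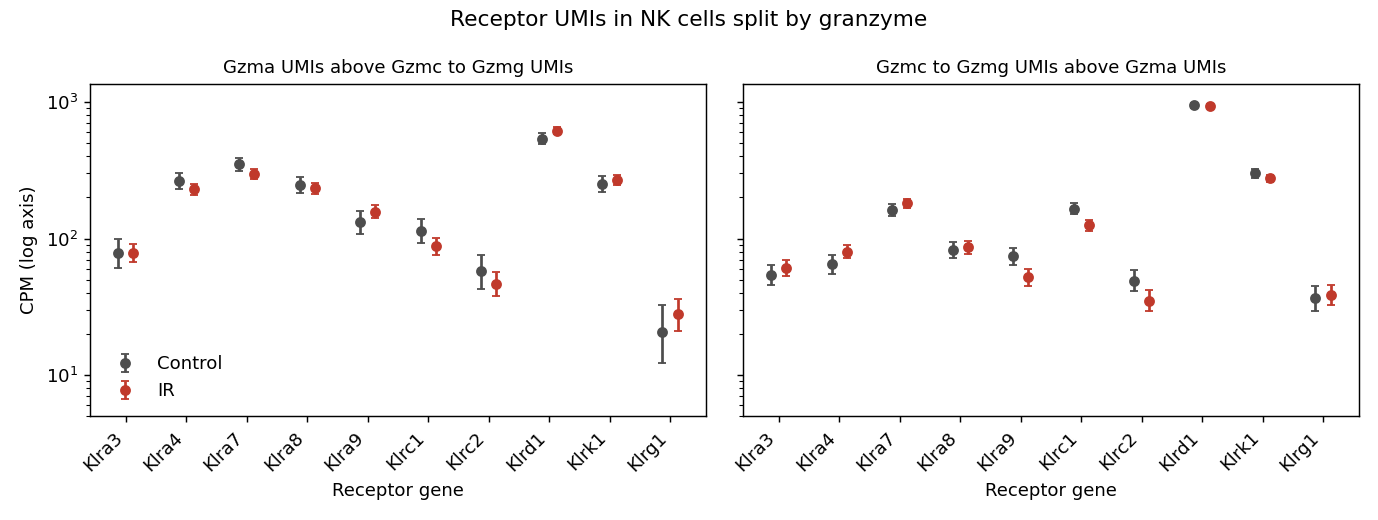
Receptor levels in NK cells of the Gzma group (left) and the Gzmc-g group (right) of each library, in CPM on a log axis, with exact Poisson 95% intervals as bars. Klra4 lies at 264 and 229 CPM in the Gzma group and at 64.8 and 80.3 CPM in the Gzmc-g group, and Klrc1 is lower in IR in both groups.

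Each of the 5 Ly49 genes was higher in the Gzma group in both libraries. Klra4 was at 264 CPM in Control and 229 CPM in IR in the Gzma group, and at 64.8 and 80.3 CPM in the Gzmc-g group. Klra8 was at 248 and 233 CPM against 82.7 and 86.6 CPM. Klra9 was at 131 and 157 CPM against 74.5 and 52.2 CPM. The inhibitory Klra3 was at 78.4 and 78.9 CPM against 53.9 and 61.1 CPM. Within the groups the Ly49 sum differed less between the libraries than in all NK cells. The log2 ratio, IR over Control, was -0.11 (-0.22 to 0.005) in the Gzma group and 0.08 (-0.03 to 0.19) in the Gzmc-g group. In an alternative chosen after seeing the data, the 2 groups and the cells with neither in excess (28 and 10) were weighted in IR as in Control. The log2 ratio was then 0.064 for the sum, 0.05 for Klra4, 0.06 for Klra8 and -0.17 for Klra9. The last 3 compare with 0.26, 0.26 and 0.06 in all NK cells without this weighting. Klrc1 was lower in IR in both groups, with log2 ratios of -0.38 (-0.74 to -0.01) and -0.40 (-0.59 to -0.21). Klra9 differed in opposite directions, with 0.25 (-0.06 to 0.57) in the Gzma group and -0.51 (-0.81 to -0.22) in the Gzmc-g group. The difference between the groups was not tested.

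The share of NK cells with a Ly49 UMI was compared after each cell was thinned to 2000 UMIs, a depth that 30 NK cells of Control and 10 of IR did not reach. At this depth 156 of 353 cells had a Ly49 UMI in Control (44.2%, 38.9 to 49.6) and 220 of 370 in IR (59.5%, 54.3 to 64.5). Without thinning the shares were 56.4% and 76.1%. In macrophage barcodes, which had 3 or more C1q UMIs and lacked Ncr1, Cd3d and Cd3g, the same thinned share was 1.69% in Control and 4.27% in IR. These barcodes had medians of 7935.5 and 9841 UMIs before thinning. The part of free RNA in the NK shares was not tested. In the Gzma group the share was 70.8% (61.1 to 79.2) in Control and 75.6% (68.6 to 81.6) in IR. In the Gzmc-g group it was 34.1% (27.9 to 40.8) and 45.3% (37.9 to 52.9). The intervals of the 2 libraries overlapped in each group but not over all NK cells. Of the single genes, Klra7 was found in 24.1% and 32.7% of thinned cells, Klra4 in 15.0% and 21.4%, Klra8 in 16.1% and 21.1%, Klra9 in 11.9% and 17.0%, and Klra3 in 9.63% and 12.4%.

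Most Ly49-positive cells had UMIs of 1 or 2 of the 5 genes. In Control 72 thinned cells had 1 member, 58 had 2, 21 had 3 and 5 had 4. In IR the numbers were 105, 71, 36 and 8. No cell had all 5, which allows a share of up to 1.04% in Control and 0.992% in IR (Clopper-Pearson). The 5 and 8 cells with 4 members were all in the Gzma group. Pairs of Ly49 genes were found in the same cell more often than the product of their shares gives for 9 of 10 pairs in each library, with a median ratio of observed to expected cells of 1.83 in Control and 1.45 in IR. Klra4 and Klra7 were found together in 29 Control cells where 12.8 were expected, and in 38 IR cells where 25.8 were expected. Klra3 and Klra7 were the exception in both libraries, with ratios of 0.977 and 0.997. These cells shared a library and differed in granzyme group, and the ratios are descriptions of them.

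Ly49 and NKG2A UMIs were found together less often than the product of their shares. The median ratio over the 5 Ly49 genes with Klrc1 was 0.67 in Control and 0.66 in IR. It lay below 1 for 4 of 5 pairs in Control, where Klra3 and Klrc1 had 9 cells against 8.96 expected, and for all 5 in IR. The lowest was Klra4 and Klrc1 in IR, with 7 cells where 15.2 were expected. When each NK cell was placed by both families, those with Ly49 and without Klrc1 formed 35.4% (30.4 to 40.6) in Control and 50.0% (44.8 to 55.2) in IR. Those with Klrc1 and without Ly49 formed 17.6% (13.7 to 21.9) and 9.73% (6.91 to 13.2). Cells with both formed 8.78% and 9.46%, and cells with neither formed 38.2% and 30.8%. Over all NK cells the 2 single-family patterns thus differed between the libraries in opposite directions, each without overlap of its intervals. The patterns also differed with the granzyme group. Klrc1 without Ly49 was found in 22.3% and 14.9% of the Gzmc-g group and in 4.72% and 5.0% of the Gzma group. Ly49 without Klrc1 was found in 27.3% and 35.9% of the Gzmc-g group and in 56.6% and 65.6% of the Gzma group. Within each group the intervals of the 2 libraries overlapped for both patterns.

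**Figure D3:**
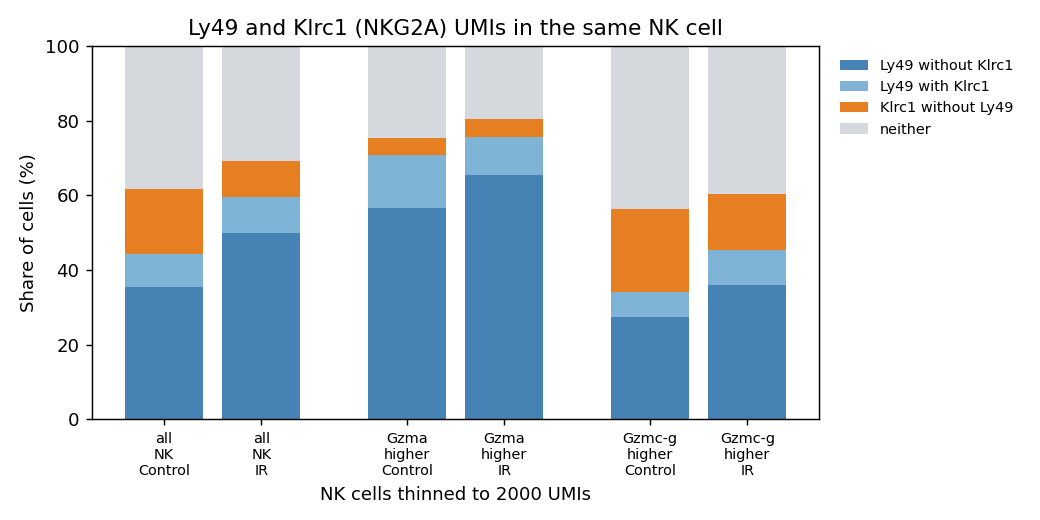
Share of NK cells, thinned to 2000 UMIs, by the presence of Ly49 and Klrc1 UMIs in the same cell, for all NK cells and for the Gzma and Gzmc-g groups of each library, with each bar adding to 100 percent. The part with Ly49 and without Klrc1 is 35.4% in Control and 50.0% in IR over all NK cells, and the part with Klrc1 alone is 17.6% and 9.73%.

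The genes with the pattern most like the Ly49 genes were sought by comparing thinned NK cells with a Ly49 UMI (156 in Control, 220 in IR) with those without (197 and 150). Likeness was the difference of log2(CPM + 10) between the 2 sets of cells, taken as the smaller of the libraries where both had the same sign, over 10448 genes. Gzma led the list, at 5096 CPM with and 1094 CPM without Ly49 in Control, and 7400 and 1890 CPM in IR, a difference of 1.96 on the log2 scale. It was followed by the serpin Serpinb9b (1.46), the T cell receptor delta constant gene Trdc (1.33), Slc25a51 (1.33), Eomes (1.32), a transcription factor of NK cell maturation, and the chemokine Ccl5 (1.26). Tnfrsf12a, Khdc1a, BC005561 and Gstm1 completed the 10, at 1.22 to 1.11. Eomes was at 237 and 38.1 CPM in Control and 223 and 83.3 CPM in IR. Ccl5 was at 4122 and 820 CPM in Control and 3364 and 1403 CPM in IR. Several of the others rest on few UMIs, such as 7 and 20 in all for Tnfrsf12a in Control and IR. The 5 genes most in the opposite direction were Tmem176b (-2.39), Krt83 (-2.12), C1qc (-1.93), Tmem176a (-1.90) and Retnla (-1.87). C1qc is a macrophage gene, and it was at 106 CPM with and 444 CPM without Ly49 in Control. Of the other receptors, Klrk1 was slightly higher in cells with Ly49 UMIs (0.37), Klrd1 was level (0.07) and Klrc1 was lower (-0.36).

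Genes of the same pathway were counted from fixed lists, each with its number of genes 2-fold higher or lower in IR among those with at least 20 UMIs. Over all genes tested in NK cells, 3.33% were 2-fold or more higher in IR and 1.95% were lower. In NK cells, none of 12 other receptors of the NK complex differed by 2-fold, with a median log2 ratio of 0.05. Klra6 was lowest at -0.997 (-1.70 to -0.30), just inside 2-fold, with 41 and 33 UMIs, and Klra1 (Ly49A, inhibitory) was at -0.40 (-0.65 to -0.16). Clec2d, the ligand of the inhibitory Klrb1b family, was highest at 0.83 (0.48 to 1.19). Of 14 adaptor and signaling genes none differed by 2-fold, with a median of -0.18, and the Ly49 adaptor Tyrobp was at 2414 and 2392 CPM. Of 6 ligand genes none differed by 2-fold, with a median of 0.01, and H2-T23, the ligand gene of NKG2A, was at 282 and 379 CPM (0.43, 0.32 to 0.54). Of 17 maturation and effector genes, with a median of 0.35, 1 was 2-fold higher and 1 lower. These were the granzyme Gzmb (1087 and 2931 CPM, 1.43) and the chemokine receptor Cx3cr1 (32.3 and 12.3 CPM, -1.39). Of 11 genes linked to tissue-resident type 1 innate lymphoid cells none was 2-fold higher and 2 were lower, with a median of -0.04. The 2 lower genes were the integrin Itga1 (128 and 58.6 CPM, -1.13) and the death ligand Tnfsf10 (33.4 and 13.2 CPM, -1.34). Of the 11, 5 had a ratio above 0, namely Il7r (0.90), Gzmf (0.73), Gzme (0.59), Gzmd (0.53) and Gzmg (0.52). The part of other cells in these gene levels was not tested.

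In T cells the 5 Ly49 genes were lower than in NK cells and the libraries differed more. The Ly49 sum was 82.6 CPM in Control (968 UMIs) and 155 CPM in IR (1699 UMIs), with a log2 ratio of 0.91 (0.79 to 1.02). The ratio was 0.96 without the barcodes that also had an Ncr1 UMI and were counted as NK cells too. Those barcodes held 449 of the Ly49 UMIs in Control and 839 in IR, and the values that follow here include them. Klra4 was 2-fold or more higher in IR, at 11.0 and 26.8 CPM (1.29, 0.98 to 1.60), as was Klra8, at 9.30 and 21.9 CPM (1.24, 0.90 to 1.58). These were the only 2 of the 10 receptors past 2-fold. Among the 12012 genes tested in T cells, 4.18% were 2-fold or more higher in IR, 2.66% were lower and 6.84% were either, and the median log2 ratio was -0.04. Klra7 was just inside, at 37.9 and 73.9 CPM (0.96, 0.79 to 1.13), and Klra9 was at 11.0 and 19.3 CPM (0.81). Klra3 did not share this difference, at 13.4 and 13.1 CPM (-0.03, -0.36 to 0.31). The NKG2 and CD94 sum was 533 and 655 CPM (0.30, 0.25 to 0.34), with Klrd1 at 289 and 369 CPM and Klrk1 at 122 and 155 CPM. Klrg1 was lower in IR, with 270 UMIs (23.04 CPM) and 156 UMIs (14.2 CPM) and a log2 ratio of -0.69 (-0.99 to -0.41).

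These T cell values depended on the barcodes with C1q UMIs, whose share differed between the libraries. Without them, 597 Control and 516 IR cells remained, and the Ly49 sum was 187 and 223 CPM, with a log2 ratio of 0.26 (0.12 to 0.39) in place of 0.91. No receptor was then 2-fold different. Klra4 was at 0.44 (0.08 to 0.82), Klra8 at 0.11 (-0.30 to 0.53) and Klra9 at 0.29 (-0.09 to 0.68). The NKG2 and CD94 sum turned to -0.19 (-0.25 to -0.13), with Klrd1 at -0.16 (-0.24 to -0.08) and Klrk1 at -0.18 (-0.30 to -0.05). Klrc1 was at -0.26 (-0.41 to -0.11) and Klrc2 at -0.35 (-0.63 to -0.07). Klrg1 stayed lower in IR at -0.83 (-1.20 to -0.47), and the inhibitory Klra3 was lower at -0.71 (-1.10 to -0.31). The opposite signs of Klra3 and Klra7, at 0.46 (0.27 to 0.66), were thus seen after the C1q barcodes were left out.

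**Figure D4:**
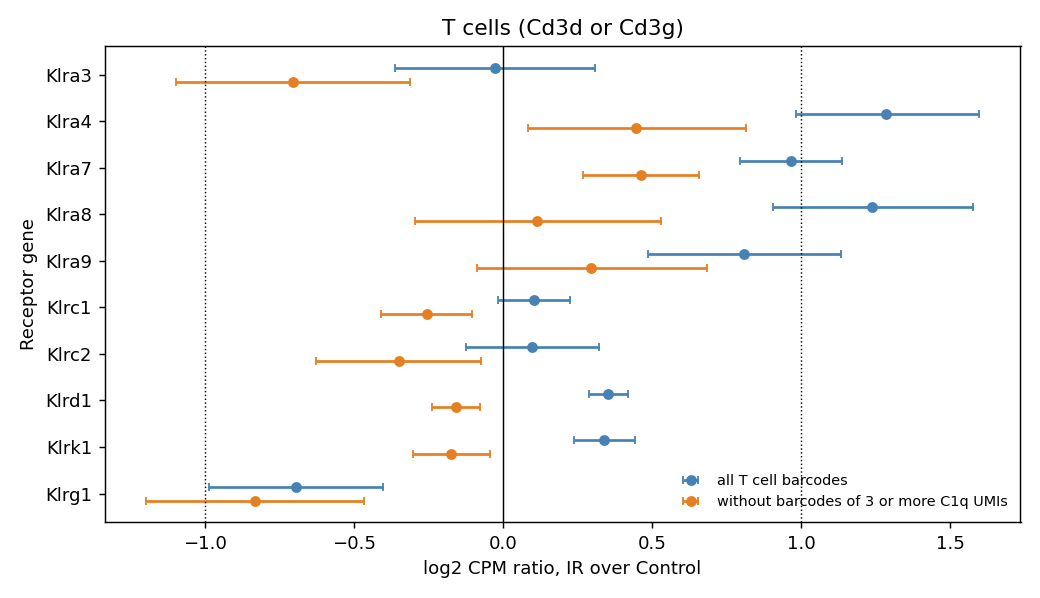
Log2 CPM ratio, IR over Control, of each receptor in T cells, with all T cell barcodes in blue and without barcodes of 3 or more C1q UMIs in orange. Points are ratios of 1 library to 1 library, bars are exact conditional 95% intervals and dotted lines mark 2-fold. Klra4 moves from 1.29 to 0.44, Klrd1 from 0.35 to -0.16, and Klrg1 stays below 0 at -0.69 and -0.83.

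The remaining T cells, without Ncr1 and C1q barcodes (532 in Control and 449 in IR), were divided by Cd4, Cd8a and Cd8b1. The classes differed in the receptors they held. Cells with Cd8a or Cd8b1 (223 and 166) had the NKG2 receptors, with Klrd1 at 839 and 783 CPM, Klrk1 at 336 and 265 CPM and Klrc1 at 294 and 241 CPM, and Klrc1 was higher here than in NK cells. Their main Ly49 gene in Control was Klra3, at 34.0 CPM and 16.6 CPM in IR (-1.04, -1.74 to -0.36), followed by Klra7 at 15.0 and 16.0 CPM. Cells with Cd4 (79 and 68) held only 1 Ly49 UMI in Control and 11 in IR. They had the highest Klrg1 level of the classes, at 126 CPM (50 UMIs) and 69.2 CPM (53 UMIs), with a log2 ratio of -0.86 (-1.45 to -0.28). Cells with neither Cd4 nor Cd8 (223 and 201) held most Ly49 UMIs, at 220.5 and 311 CPM in sum (0.50, 0.28 to 0.72), and Klra7 made up 127 and 179 CPM of this. In these cells Klrg1 was at 43.1 and 13.7 CPM (-1.65, -2.43 to -0.91). Absence of a Cd4 or Cd8 UMI does not show absence of the protein, and these cells had medians of 3708 and 5583 UMIs. Nor does absence of an Ncr1 UMI show that a barcode was not an NK cell. Ncr1 was at 254 CPM in Control and 188 CPM in IR even in the NK cells gated by it. The part of NK cells in this class was not tested. Klrg1 was thus lower in IR in each of the 3 classes, with 22 and 5 UMIs in the Cd8 class.

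Klra4 in the T cell gate rested in part on few barcodes. Those T cells without Ncr1 and C1q that had 3 or more UMIs of Col1a1, Col1a2 and Col3a1, collagen genes of stromal cells, numbered 2 in Control and 6 in IR. They held 17 of 33 Klra4 UMIs in Control and 44 of 96 in IR, and no UMI of another Ly49 gene. Without them Klra4 was at 5.17 CPM in Control and 12.1 CPM in IR (1.23, 0.40 to 2.14).

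Outside NK and T cells, Klrk1 and Klrd1 were also found in DC, and their order by level differed between DC classes. Barcodes with at least 3 UMIs of the DC genes Xcr1, Clec9a, Flt3, Cd209a and Ccr7 and outside the gates for NK, T, macrophage and collagen barcodes were placed by which of Xcr1 with Clec9a, Cd209a or Ccr7 had the most UMIs. The Ccr7 class, of migratory DC, held 114 and 147 barcodes, where Klrk1 stood at 119 CPM in Control (97.8 to 143) and reached 205 CPM in IR (182 to 229). Klrd1 was lower there, at 80.0 and 137 CPM. In the Cd209a class of 41 and 66 barcodes the order was reversed, with Klrd1 at 278 and 413 CPM and Klrk1 at 79.5 and 131 CPM. The Ly49 genes had 10 and 34 UMIs in all in the Ccr7 class and 1 and 9 in the Cd209a class. Nkg7, a granule gene abundant in NK and T cells, had 8 UMIs in the Ccr7 class in Control and 97 in IR, and 2 and 8 in the Cd209a class. The NK markers summed to 73.5 and 181 CPM in the Ccr7 class. The ratio of Klrd1 to Klrk1 UMIs was 2.92 in Control and 3 in IR in NK cells and 3.39 and 3.82 in barcodes of 10 to 100 UMIs. It was 3.5 and 3.16 in the Cd209a class, 0.673 and 0.668 in the Ccr7 class, and 0.568 and 0.479 in macrophage barcodes. In the class of Xcr1 with Clec9a, of 22 and 10 barcodes, it was 0.889 and 0.667. That class held few UMIs, with 45 and 18 of Klrk1 and 40 and 12 of Klrd1. The part of free RNA and of other cells in the DC values was not tested.

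Klrk1 in macrophage barcodes was higher in IR. It had 461 UMIs in 2148 barcodes in Control (24.3 CPM) and 486 UMIs in 672 barcodes in IR (62.3 CPM), with a log2 ratio of 1.36 (1.17 to 1.54). After thinning to 2000 UMIs, 4.31% (3.45 to 5.31) of these barcodes had a Klrk1 UMI in Control and 10.3% (8.03 to 12.9) in IR. For comparison Klrd1 was at 13.8 and 29.9 CPM (1.11, 0.85 to 1.37) and the Ly49 sum at 14.8 and 29.1 CPM (0.97, 0.72 to 1.23) in the same barcodes. The NK markers, of which 7 of 8 were detected and Ncr1 was at 0 by the gate, summed to 111 CPM in Control and 330 CPM in IR there. Free RNA of Klrk1 was at 78.7 CPM in Control and 141 CPM in IR. The part of free RNA and of NK cell RNA in the macrophage values was not tested.

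**Figure D5:**
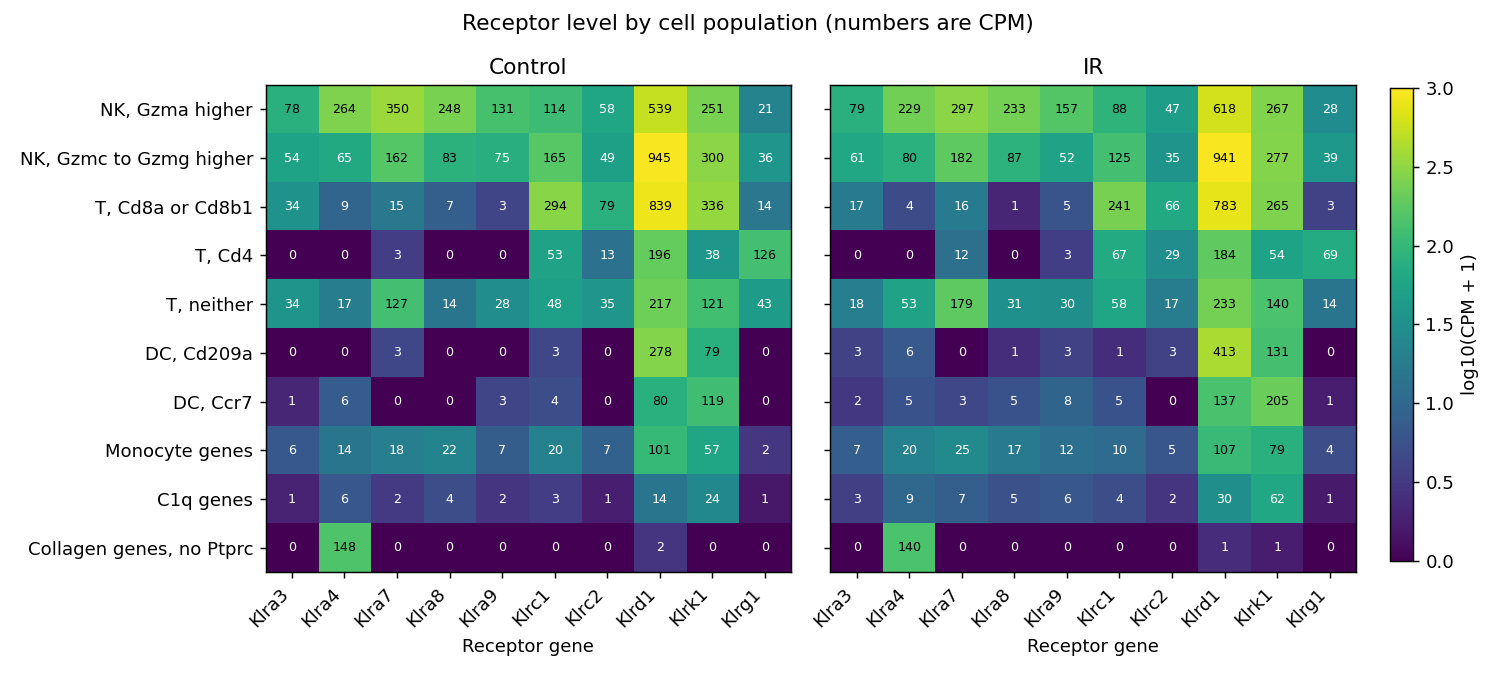
Level of the 10 receptors in 10 cell populations of the Control library (left) and the IR library (right), where color gives log10(CPM + 1) and the numbers are CPM. T cell rows are without Ncr1 and C1q barcodes, and NK rows are the 2 granzyme groups. The last row, barcodes with collagen genes and without Ptprc, holds Klra4 at 148 and 140 CPM and 0 to 2 CPM of each other receptor.

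Klra4 was also found without any other Ly49 gene in barcodes outside the NK and T cell gates. Barcodes with at least 3 collagen UMIs, no UMI of Ptprc (CD45), no UMI of Ncr1, Cd3d or Cd3g and under 3 C1q UMIs numbered 73 in Control and 76 in IR, with medians of 19899 and 35562.5 UMIs. The absence of RNA for the marker of the CD45+ sort was set by this gate. In these barcodes Klra4 had 242 UMIs in Control (148 CPM, 130 to 168) and 399 UMIs in IR (140 CPM, 127 to 155), against 111 and 133 CPM in all NK cells, with overlapping intervals in IR only. It was found in 42 of 73 (57.5%, 45.4 to 69.0) and 61 of 76 (80.3%, 69.5 to 88.5), with up to 27 and 25 UMIs in 1 barcode. Klra3, Klra7, Klra8, Klra9, Klrc1, Klrc2, Klrg1 and the NK marker Klrb1c each had 0 UMIs in both libraries, which allows up to 2.25 CPM in Control and 1.30 CPM in IR for each. Klrd1 had 3 and 4 UMIs. NK and T cell markers were detected at low levels. Of the 8 NK markers 4 and 6 were detected, at 10.4 and 13.7 CPM in sum. Of the 11 T cell markers 6 and 4 were detected, at 4.88 and 3.52 CPM. The 6 DC markers summed to 174 and 172 CPM, with 2 and 3 of them detected. The monocyte markers summed to 63.5 and 32.4 CPM and the macrophage markers to 47.6 and 9.85 CPM. Col3a1, which was part of the gate, was at 2243 and 1127 CPM. The matrix gene Sparc, which was not, was at 1912 and 1593 CPM. The transcription factor Sox9 was at 530 and 575 CPM, and the epithelial genes Krt8 and Epcam had 0 UMIs. These barcodes held 24.5% of all Klra4 UMIs of the Control library and 22.4% of those of the IR library.

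Ligands of the receptors were measured in the same populations and in monocyte barcodes, which had 3 or more UMIs of Ly6c2, Ccr2, Plac8 and Chil3 and lay outside the other gates. The NKG2D ligand gene Raet1e was highest in the collagen barcodes, at 41.5 CPM (32.2 to 52.6) in Control and, in IR, 29.9 CPM (23.9 to 37.0), against 0.814 and 2.03 CPM in NK cells. Ulbp1 was at 18.9 and 19.0 CPM in the collagen barcodes, and in macrophage barcodes it was at 11.3 CPM in Control and 3.08 CPM in IR. Raet1d was highest in macrophage barcodes, at 6.33 CPM in Control and 11.0 CPM in IR. H2-T23, the ligand gene of CD94 with NKG2A, was higher in IR in each population measured. It was at 237 and 466 CPM in macrophage barcodes, 326 and 500 CPM in monocyte barcodes, 421 and 605 CPM in DC and 89.1 and 177 CPM in collagen barcodes. H2-D1, a class I gene, was at 2177 and 3229 CPM in collagen barcodes and 1698 and 2783 CPM in macrophage barcodes. Cdh1, the E-cadherin ligand of Klrg1, was highest in macrophage (101 and 44.2 CPM) and monocyte barcodes (101 and 47.2 CPM), lower in IR in both.

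The same lists were counted in T cells, where 4.18% of all genes tested were 2-fold or more higher in IR and 2.66% were lower. None of 12 other NK complex receptors, 14 adaptor and signaling genes or 8 ligand genes was 2-fold different, with median log2 ratios of 0.32, 0.01 and 0.39. Of 17 maturation and effector genes 6 were 2-fold higher in IR, among them Gzmb (1.66), Ly6c2 (1.48) and Eomes (1.26), and 1 was lower, Cx3cr1 (-1.99). The median of the 17 was 0.42. Of 11 type 1 innate lymphoid genes 1 was higher, Gzmf (1.24), and none lower, with a median of -0.07. Ly6c2 and Cx3cr1 are also monocyte and macrophage genes, and the barcodes of this gate differed in C1q as given above.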

How the data were processed

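CD45+ cells of Control and IR MC38 tumors were profiled by droplet single-cell RNA sequencing (10x Chromium 3′ v3.1). The deposited files held UMI counts of each gene in each barcode, not normalized, as 1 unfiltered matrix per library, aligned to mm10 with Cell Ranger 6.0.1 per the labels, while the matrix headers name an earlier release. From these counts, barcodes with at least 1000 UMIs were kept. NK cells had at least 1 Ncr1 UMI and T cells at least 1 Cd3d or Cd3g UMI. No other column of per-sample values was present. No doublet caller was used in the main values. Barcodes in the 6% with the highest Scrublet score (scanpy 1.11.5), with both markers or with C1q UMIs were removed as alternatives.

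UMIs were summed per population and scaled to CPM. Since each group had 1 library, differences were not tested. Intervals are exact Poisson (CPM), Clopper-Pearson (shares) and exact conditional (ratios) 95% intervals (scipy 1.17.1) and cover counting error only, since precision rests on depth within 1 library. For shares, each cell was thinned to 2000 UMIs with a fixed seed. Named genes were the 10 members, genes of the fixed lists and, by rule, the 10 highest and 5 lowest non-member genes in cells with against without a Ly49 UMI (at least 20 UMIs), mitochondrial, Xist and Y-linked genes left out. Lists were counted at 2-fold, and the text gives their counts and medians with the genes that stand at the ends. The members, lists and tests were chosen with earlier results of these data known, and the gates for DC, monocyte and collagen barcodes were set after their values were seen. Other alternatives were UMI minimums, a mitochondrial limit, 2 marker UMIs, another NK gate, TMM scaling (edgeR 4.0.16), another CPM total and subtraction of free RNA. The 2-fold rule, the intervals of the ratios and the thinning were checked on simulated data. Gene positions are from GENCODE vM21 and promoter windows from RefSeq, and protein sequences were not used here.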

Additional observations from a re-analysis of the deposited data

Results flagged for a closer look

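Klra4 gave a signal in barcodes that the NK and T cell comparisons do not use. In barcodes with collagen genes, without Ptprc and without UMIs of Ncr1, Cd3d and Cd3g, its level was 148 CPM in Control and 140 CPM in IR, above the limit of 2.25 and 1.30 CPM that a count of 0 allows there. The other 4 Ly49 genes had 0 UMIs in these barcodes in both libraries. The last 500 bases of the annotated Klra4 transcript held no 90-base window that occurred in another gene (0 of 411).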

How the results depend on the processing

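No paired analysis was possible because each group had only 1 library. The 7 main ratios were recomputed under alternative settings, which gave 78 values over all 7 ratios. Of these values, 64 stayed within the 95% interval of the main ratio, 11 left it and 3 took the opposite sign, and 75 of 78 had the sign of the main value. All ratios are log2, IR over Control. Without barcodes of 3 or more C1q UMIs the Ly49 ratio was 0.11 in NK cells (main 0.20) and 0.26 in T cells (main 0.91), the NKG2 and CD94 ratio was -0.13 in NK cells (main -0.07) and -0.19 in T cells (main 0.30), and the ratio of the NK share was -0.12 (main 0.49). The same setting turned Klrd1 to -0.16 and Klrk1 to -0.18 in T cells. Subtraction of free RNA removed 76.7% and 77.9% of all T cell UMIs and 31.5% and 43.0% of NK cell UMIs, and gave 3.66 for Ly49, -1.94 for NKG2 and CD94 and -0.39 for Klrk1 in T cells, values that rest on what little was left. The NKG2 and CD94 ratio in T cells was 0.20 without the highest Scrublet scores, 0.22 with at least 2 marker UMIs and 0.23 with CPM over genes other than mitochondrial and ribosomal protein genes. With NK cells gated by Ncr1 or Klrb1c and without Cd3d and Cd3g, Klrg1 was at 0.48 (main 0.12) and the NK share at 0.69. Among alternatives chosen after seeing the data, granzyme groups weighted as in Control gave 0.064 for Ly49 in NK cells. Leaving out the 10 NK cells with the most Ly49 UMIs in each library gave 0.28. The ratio of the Ly49 share in NK cells (main 0.43, thinned) ranged from 0.36 to 0.47, and this range includes the share without thinning. Minimums of 500 and 2000 UMIs could not change this ratio, since cells under 2000 UMIs were already left out by the thinning. Those values are still counted among the 64 within the interval. Of 201 values of single receptors, 175 stayed within the interval, 23 left it and 3 took the opposite sign of a main value whose interval excluded 0. The 201 lack T cell values with free RNA subtracted for Klra3, Klra4, Klra7, Klra8, Klra9, Klrd1 and Klrg1. For these receptors the subtraction left 0 UMIs or fewer in at least 1 library, so no ratio could be formed. The cause of these changes was not tested. Depth limits the values that rest on few UMIs, such as Klrg1 in the Cd8 class (22 and 5 UMIs) and the Ly49 genes in Cd4 T cells (1 and 11).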

Other observations

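The receptors differed in how much of their signal lay in NK and T cells. In Control, NK or T cells held 93.2% of Klrg1, 90.3% of Klrc1, 86.0% of Klrc2 and 83.5% of Klrd1 UMIs, but 68.8% of Klrk1, 66.4% of Klra8 and 47.6% of Klra4 UMIs. In IR the shares were 85.2%, 90.5%, 84.5%, 80.2%, 62.6%, 71.4% and 52.2% in the same order. The share of Klrg1 UMIs in T cells without Ncr1 was 63.0% in Control and 32.7% in IR, and the share in NK cells without Cd3d and Cd3g was 22.9% and 44.7%. In monocyte barcodes Klrc1 was at 19.6 CPM in Control and 10.1 CPM in IR (log2 ratio -0.96, -1.43 to -0.49).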
